A study of Mus musculus with 9 samples.

Results

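Among the 23420 genes listed for mouse RAW264 cells, 38 form the machinery of sterol synthesis, fatty acid synthesis and desaturation, and oxysterol sensing by the liver X receptors (LXR). They were chosen by function, by name, and with earlier results of these data known. The 38 are 18 enzymes of the sterol pathway and 6 genes of SREBP control and sterol transport. The rest are 8 genes of fatty acid synthesis and desaturation and 6 genes of the LXR and of lipid efflux. All 38 were found, 37 by symbol and Msmo1 under its older symbol Sc4mol. RAW264 is a macrophage-like mouse line. KO #1 and KO #2 are clones of it that carry a CRISPR/Cas9 mutation in Zscan10, a zinc finger gene, in exon 2 and exon 5 by their sample characteristics, although the raw-read names of the same samples carry the opposite numbers. The clones were made by electroporating Guide-it vectors for Cas9 and a guide RNA and sorting single cells, so each genotype is 1 clone, and the labels do not say whether Control cells went through the same steps. None of the 3 groups was given RANKL, the cytokine that turns these cells into osteoclasts. Each group had 3 RNA-seq libraries.

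Cells make cholesterol from acetyl-CoA through mevalonate, squalene and lanosterol, and the genes of this route are switched on by the transcription factor SREBP2 when sterols in the endoplasmic reticulum run low. Scap escorts the SREBPs to the Golgi for cleavage, and the Insig proteins hold them back when sterols are plentiful. The related factor SREBP1 drives fatty acid synthesis and desaturation, and LXR, activated by oxysterols, raises SREBP1 and the transporters that export cholesterol, a route that macrophages use to unload lipid taken up from lipoproteins and dead cells.

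Values are normalised reads, that is gene counts divided by 1 size factor per library. Library totals were 1821703 to 2458539 reads. Changes are log2 changes ± SE on the log2(normalised reads + 1) scale, which understates the change of genes with few reads, and a gene is said to have fallen or risen where limma gave a Benjamini-Hochberg adjusted p under 0.05 over the 9564 genes tested. The labels do not state that replicate libraries came from separate cultures, and p-values therefore measure only the spread between libraries, which may be technical. Zscan10 had 0 reads in all 9 libraries, where 3 reads would be 0.154 CPM, so the mutations could not be checked. All 14 macrophage markers looked up had reads in each group, and their summed level was 43283 to 44444 normalised reads in KO #1, 39553 to 40977 in KO #2 and 30336 to 31505 in Control. Most of that sum is Lyz2, with means of 30181 in KO #1, 27720.2 in KO #2 and 17632 in Control. Of the 13 tested macrophage markers 5 rose and 2 fell in KO #1, and 2 rose and 7 fell in KO #2. Over all tested genes 10.5% rose and 10.2% fell in KO #1, and 10.7% rose and 11.8% fell in KO #2. The 2 falls in KO #1 and the 2 rises in KO #2 are near those shares. The marker lists of fibroblasts, epithelium, hepatocytes and B cells each summed to at most 1.18 in any library. T cell markers summed to 7.11 to 14.97 in KO #1, 3.93 to 7.55 in KO #2 and 4.36 to 9.44 in Control, with Cd3e and Cd3g at 0 throughout, and dendritic cell markers to 7.22 to 11.98 in KO #1, 3.93 to 4.72 in KO #2 and 3.93 to 9.60 in Control, with Flt3 and Ccr7 at 0 throughout. Of 6 osteoclast markers 5 had a read in KO #1, 4 in KO #2 and 4 in Control, with sums of 21.6 to 32.9 normalised reads in KO #1, 67.3 to 71.7 in KO #2 and 17.8 to 24.4 in Control, and Calcr was at 0 throughout. Of the 2 tested, Acp5 rose in both clones (log2 change 1.89 in KO #1 and 3.75 in KO #2) and Dcstamp was called in neither. Acp5 averaged 1.85 normalised reads in Control, so that it passed the filter on low values only through the clones. The 5 adipocyte markers summed to 30.9 to 44.7 in KO #1, 25.5 to 42.5 in KO #2 and 27.9 to 35.7 in Control, nearly all of it Lipe, while Adipoq, Plin1 and Lep were at 0 in every library. The part of these marker levels in the results that follow was not tested.

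Most of the machinery was lower in KO #1, and fewer of its genes were lower in KO #2. In KO #1 25 of the 37 tested members fell against Control, where 10.2% of all tested genes fell. None of the 37 rose in KO #1 by limma, DESeq2, edgeR or limma-voom, with 1 higher at an unadjusted p under 0.05, where 10.5% of all tested genes rose. In KO #2 14 of 37 fell and 1 rose against Control, where 11.8% of all tested genes fell and 10.7% rose. The median log2 change of the 37 members was -0.41 in KO #1 and -0.17 in KO #2, beside a median of -0.01 over all tested genes in both comparisons. The comparisons share the Control libraries. Because the members were chosen with earlier results known, the shares over all genes are a background and not a test. The number called depended on the method. DESeq2 called 19 members in place of 25 in KO #1 and 8 in place of 15 in KO #2. Over all tested genes it called 1236 in place of 1985 in KO #1 and 1396 in place of 2152 in KO #2. In KO #2 limma called 9 members without KO #2 replicate 3 or without Control replicate 3. With the authors' FPKM tables the KO #2 calls of Fasn (adjusted p = 0.148), Dhcr7 (0.0937), Acaca (0.0627), Srebf2 (0.0612), Lss (0.0581) and Srebf1 (0.0577) were not made, nor were the KO #1 calls of Acly (0.0645) and Nsdhl (0.0601). The libraries are of bulk RNA, in which fewer cells that express a gene and less RNA per cell cannot be told apart.

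**Figure D1:**
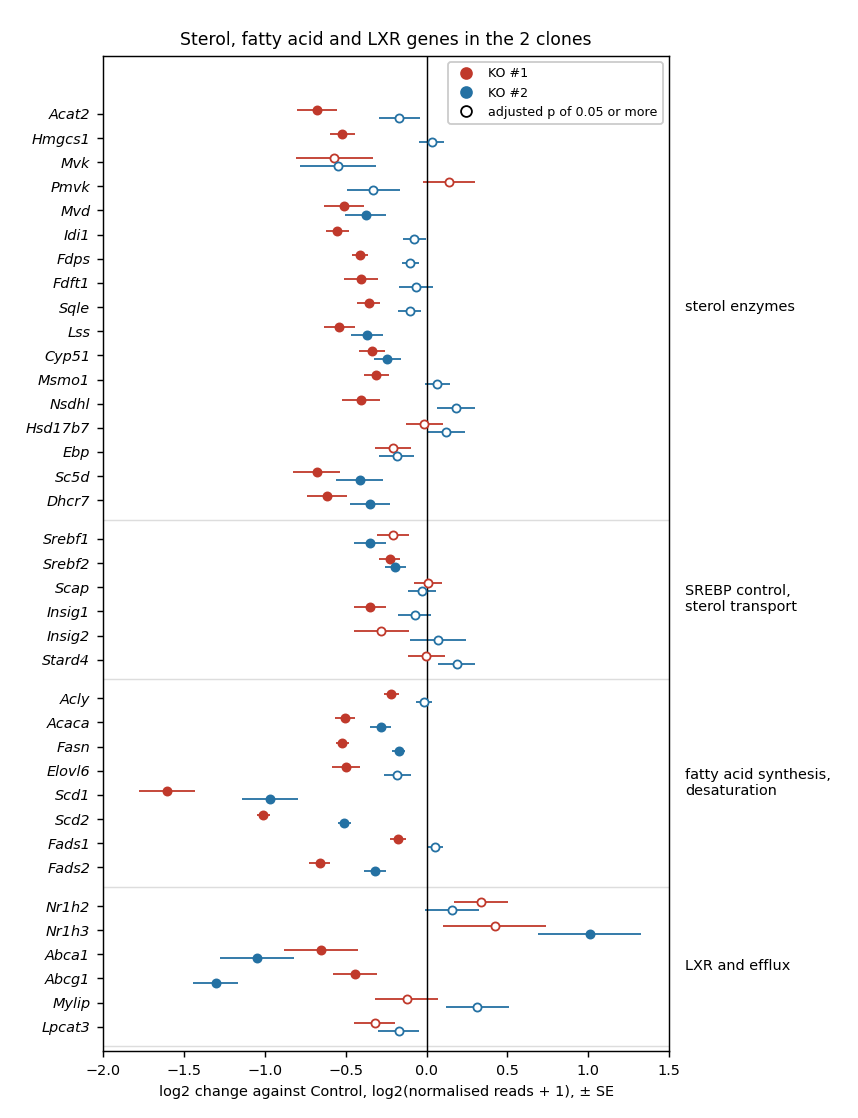
Log2 change against Control (x axis, log2 of normalised reads plus 1) of the 37 tested members, 1 row a gene, with KO #1 in red above KO #2 in blue and bars of 1 SE. Filled points passed an adjusted p of 0.05 in limma (25 in KO #1 and 15 in KO #2), and the largest falls are those of Scd1 in KO #1 and Abcg1 in KO #2.

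The groups of genes differed in how far they shared the fall. In KO #1 the median log2 change was -0.51 for fatty acid synthesis and desaturation (8 of 8 fell), -0.41 for the sterol enzymes (13 of 17 fell), -0.22 for SREBP control and transport (2 of 6 fell) and -0.22 for LXR and efflux (2 of 6 fell). In KO #2 these medians were -0.23 (5 of 8 fell), -0.17 (5 of 17 fell), -0.05 (2 of 6 fell) and -0.01 (2 of 6 fell and 1 rose). Library by library, the median of the sterol enzymes lay between -0.50 and -0.31 in KO #1, between -0.20 and -0.10 in KO #2 and between -0.02 and 0.01 in Control, relative to the Control mean. The median of the fatty acid genes lay between -0.58 and -0.49 in KO #1, between -0.30 and -0.19 in KO #2 and between -0.01 and 0.01 in Control. The libraries of the 3 groups did not overlap in either median. They overlapped for LXR and efflux, at -0.36 to -0.01 in KO #1, -0.13 to 0.07 in KO #2 and -0.09 to 0.06 in Control.

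**Figure D2:**
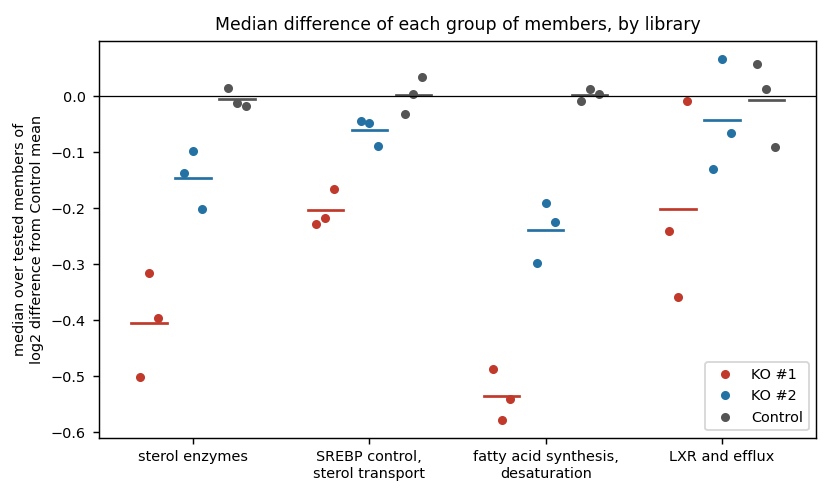
Median over the tested members of each group of genes of the log2 difference from the Control mean (y axis), 1 point a library and 1 line the mean of 3 libraries, for KO #1, KO #2 and Control from left to right. KO #1, KO #2 and Control do not overlap for the sterol enzymes, the fatty acid genes and, by small margins, SREBP control, and they overlap for LXR and efflux.

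The sterol route begins with the joining of acetyl-CoA units by the thiolase Acat2 and the synthase Hmgcs1. Acat2 had 79.4, 82.8 and 64.0 normalised reads in KO #1, 115, 113 and 94.4 in KO #2 and 141, 104 and 119 in Control. Every KO #1 library was below every Control library, and Acat2 fell in KO #1 (log2 change -0.68 ± 0.12, adjusted p = 1.86e-05), whereas in KO #2, whose libraries overlapped those of Control, the change was -0.17 ± 0.12 (adjusted p = 0.383). Of the 50-base stretches of Acat2 transcripts 39.1% also occur in Acat3, a neighbouring paralog, so its count is uncertain. Hmgcs1 had 170.1, 174 and 199 normalised reads in KO #1, 263, 258 and 274 in KO #2 and 278, 257 and 243 in Control. It fell in KO #1 (log2 change -0.52 ± 0.078, adjusted p = 2.82e-07), and in KO #2 its 3 libraries lay among those of Control (log2 change 0.03 ± 0.078, adjusted p = 0.833). An antisense gene covers 16.97% of the Hmgcs1 exon bases, and whether counting used the strand of these stranded libraries is not given in the sources used here.

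Hmgcs1 is a textbook target of SREBP2. Its promoter is shown because it was the single member promoter, of 39 windows matched to 30 members, that held the core of the sterol regulatory element, searched as TCACNCCAC on both strands. The window runs from 250 bases before to 50 after the RefSeq start, at chr13:119690101-119690400 on the plus strand of GRCm38.p6. Capitals mark that core, whose first base lies 137 bases before the start, with 4 CCAAT boxes (CCAAT, or ATTGG on the other strand) and 3 GC boxes (GGGCGG, or CCGCCC).
Hmgcs1: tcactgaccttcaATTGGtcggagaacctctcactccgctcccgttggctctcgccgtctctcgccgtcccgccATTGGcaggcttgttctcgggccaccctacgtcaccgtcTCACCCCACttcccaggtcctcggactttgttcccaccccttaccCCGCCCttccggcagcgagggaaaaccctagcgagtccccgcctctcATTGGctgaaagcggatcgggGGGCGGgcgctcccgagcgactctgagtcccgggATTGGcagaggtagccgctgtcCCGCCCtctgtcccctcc
The core occurs in 1.24% of all 32851 mouse promoter windows. A match is a description of letters and not a measured site.

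Mevalonate is phosphorylated by Mvk and Pmvk and decarboxylated by Mvd, and Idi1 and Fdps turn the resulting isoprene units into farnesyl diphosphate. Mvd had 88.6, 69.9 and 73.2 normalised reads in KO #1, 91.5, 82.5 and 79.1 in KO #2 and 111, 103 and 115 in Control. Both clones lay below Control in every library, and Mvd fell in KO #1 (log2 change -0.51 ± 0.12, adjusted p = 0.00131) and in KO #2 (log2 change -0.38 ± 0.12, adjusted p = 0.0195), where the call was lost by DESeq2 (adjusted p = 0.128) and without KO #2 replicate 2 or 3 or Control replicate 1 or 3 (0.0573 to 0.0862). Idi1 had 242, 255 and 229 normalised reads in KO #1, 369.8, 308 and 334 in KO #2 and 326, 362 and 378 in Control, and fell in KO #1 (log2 change -0.55 ± 0.071, adjusted p = 6.03e-09) but not by the test in KO #2 (log2 change -0.08 ± 0.071, adjusted p = 0.511). Fdps averaged 592 ± 38.7 in KO #1, 734 ± 16.3 in KO #2 and 787 ± 42.0 in Control (SD, n = 3 each). It fell in KO #1 (log2 change -0.41 ± 0.05, adjusted p = 1.69e-09), and although the KO #2 libraries were all below Control as well, the change there was -0.10 ± 0.05 (adjusted p = 0.164). Idi1 shares 17.7% of its 50-base stretches with Gm13502 and Fdps 23.4% with the overlapping Gm43738. Exons of Gm43738, on the same strand, cover 76.9% of the Fdps exon bases. The counts of Idi1 and Fdps are therefore uncertain.

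The kinases did not pass the test in either clone. Mvk had 15.5, 37.9 and 35.6 normalised reads in KO #1, 23.6, 34.4 and 27.1 in KO #2 and 31.4, 49.1 and 46.2 in Control. KO #1 replicate 1 was the lowest of the 9 libraries and KO #1 replicates 2 and 3 lay within the Control range. Its changes were -0.57 ± 0.24 in KO #1 (adjusted p = 0.08) and -0.55 ± 0.24 in KO #2 (adjusted p = 0.0884), and it was called as lower in both clones without Control replicate 1 (0.024 and 0.027), in KO #1 without KO #1 replicate 2 or 3 (0.0236 and 0.0388), and in KO #2 by edgeR (0.0383), in a fit of only KO #2 and Control (0.0498) and without KO #1 replicate 1 (0.0424). Pmvk had 63.9, 51.9 and 67.1 normalised reads in KO #1, 48.1, 44.2 and 38.9 in KO #2 and 61.1, 54.0 and 50.4 in Control. The change of Pmvk was 0.14 ± 0.16 in KO #1 (adjusted p = 0.629) and -0.33 ± 0.16 in KO #2 (adjusted p = 0.151), with KO #2 below Control in every library.

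Squalene is made by Fdft1, oxidised by Sqle and cyclised by Lss to lanosterol. Fdft1 averaged 100.4 ± 9.17 in KO #1, 127 ± 5.61 in KO #2 and 133 ± 6.69 in Control (SD, n = 3 each), and fell in KO #1 (log2 change -0.41 ± 0.11, adjusted p = 0.00254), but not by the test in KO #2 (log2 change -0.06 ± 0.11, adjusted p = 0.735). Exons of Ctsb on the opposite strand cover 27.0% of its exon bases. Sqle had 229.8, 229 and 263 normalised reads in KO #1, 278, 296 and 284 in KO #2 and 312, 302 and 308 in Control. It fell in KO #1 (log2 change -0.36 ± 0.071, adjusted p = 6.87e-05), and in KO #2 every library was below Control by a small margin (log2 change -0.11 ± 0.071, adjusted p = 0.323). Lss had 140.2, 149.7 and 121 normalised reads in KO #1, 178, 150.2 and 136 in KO #2 and 195, 191 and 209.8 in Control. Neither clone overlapped Control, and Lss fell in KO #1 (log2 change -0.54 ± 0.10, adjusted p = 1.19e-05) and in KO #2 (log2 change -0.37 ± 0.10, adjusted p = 0.00266), where the call was lost without KO #2 replicate 3 (0.0515).

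From lanosterol onward, Cyp51 removes the first methyl group, and Msmo1, Nsdhl and Hsd17b7 remove the others. Cyp51 had 181, 174 and 206 normalised reads in KO #1, 204, 207 and 189 in KO #2 and 242, 233 and 235 in Control. Cyp51 fell in KO #1 (log2 change -0.34 ± 0.081, adjusted p = 0.000986) and in KO #2 (log2 change -0.24 ± 0.081, adjusted p = 0.0224), without overlap with Control, and the KO #2 call was lost by DESeq2 (adjusted p = 0.156) and without KO #2 replicate 3 or Control replicate 1 or 3 (0.0511 to 0.112). Exons of Akap9 on the opposite strand cover 14.6% of the Cyp51 exon bases. Msmo1 averaged 211 ± 2.48 in KO #1, 276 ± 26.8 in KO #2 and 263 ± 25.1 in Control (SD, n = 3 each). It fell in KO #1 (log2 change -0.31 ± 0.078, adjusted p = 0.00165), and had a log2 change of 0.07 ± 0.078 in KO #2 (adjusted p = 0.605). Nsdhl had 68.0, 94.8 and 81.3 normalised reads in KO #1, 129, 116 and 120.4 in KO #2 and 109, 107 and 106 in Control. The KO #1 libraries were all below and the KO #2 libraries all above those of Control. Nsdhl fell in KO #1 (log2 change -0.41 ± 0.12, adjusted p = 0.00737), a call lost by DESeq2 (0.0936) and without KO #1 replicate 1 (0.106), and its change in KO #2 was 0.18 ± 0.12 (adjusted p = 0.307). Hsd17b7 averaged 102 ± 9.14 in KO #1, 112 ± 11.9 in KO #2 and 103 ± 7.14 in Control, with overlapping libraries and no call (log2 change -0.01 ± 0.11 and 0.12 ± 0.11 in KO #1 and KO #2).

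The last steps are the isomerase Ebp, the desaturase Sc5d and the reductase Dhcr7. Ebp averaged 115 ± 12.7 in KO #1, 116.7 ± 11.2 in KO #2 and 133 ± 17.4 in Control (SD, n = 3 each) and was not called (log2 change -0.21 ± 0.11 in KO #1, adjusted p = 0.194, and -0.19 ± 0.11 in KO #2, adjusted p = 0.253). Sc5d had 54.6, 50.9 and 48.8 normalised reads in KO #1, 60.4, 55.0 and 72.0 in KO #2 and 79.4, 82.5 and 87.1 in Control. Both clones were below Control, and the highest KO #1 library and the lowest KO #2 library differed by less than 1 normalised read. Sc5d fell in KO #1 (log2 change -0.68 ± 0.15, adjusted p = 0.000226) and in KO #2 (log2 change -0.41 ± 0.15, adjusted p = 0.0316), with the KO #2 call lost by DESeq2 (adjusted p = 0.153) and on leaving out any 1 of KO #2 replicates 1 and 2 or of the Control libraries (0.0505 to 0.157), and the difference between the clones was not called (log2 difference -0.27 ± 0.15, adjusted p = 0.182). Dhcr7 had 78.3, 113 and 70.1 normalised reads in KO #1, 91.5, 113 and 105 in KO #2 and 139.6, 129.6 and 125 in Control. Replicate 2 of each clone was the highest of its clone and still below Control. Dhcr7 fell in KO #1 (log2 change -0.62 ± 0.13, adjusted p = 0.00011) and in KO #2 (log2 change -0.35 ± 0.13, adjusted p = 0.0351), and the KO #2 call was lost by DESeq2 (0.154) and without KO #2 replicate 1 or 3 or Control replicate 1 or 2 (0.0625 to 0.183). Tm7sf2, another reductase of the sterol pathway, had 4.12, 2.00 and 9.15 normalised reads in KO #1, 14.2, 6.87 and 7.08 in KO #2 and 6.98, 1.96 and 10.5 in Control. It was under the filter on low values and was not tested.

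The Sc5d promoter is shown as that of the sterol enzyme with the largest fall whose window held a searched motif. It lies at chr9:42264251-42264550 on the minus strand of GRCm38.p6 (RefSeq), and capitals mark 4 GC boxes and 1 CCAAT box, which lies 24 bases before the start.
Sc5d: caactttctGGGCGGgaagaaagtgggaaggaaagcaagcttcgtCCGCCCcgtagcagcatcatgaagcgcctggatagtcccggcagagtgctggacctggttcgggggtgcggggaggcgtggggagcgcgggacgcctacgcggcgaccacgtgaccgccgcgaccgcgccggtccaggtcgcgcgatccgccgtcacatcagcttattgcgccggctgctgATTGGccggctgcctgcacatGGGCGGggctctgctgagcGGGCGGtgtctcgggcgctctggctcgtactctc
No match to the sterol regulatory element core was in this window.

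Of the genes for the SREBPs themselves, Srebf2 fell by small amounts in both clones and Srebf1 fell in KO #2. Srebf2, which encodes SREBP2, had 331, 338 and 321 normalised reads in KO #1, 349, 324 and 342 in KO #2 and 388, 368 and 405 in Control. All 6 libraries of the clones were below Control, and Srebf2 fell in KO #1 (log2 change -0.23 ± 0.063, adjusted p = 0.00486) and in KO #2 (log2 change -0.19 ± 0.063, adjusted p = 0.0185). DESeq2 called neither (adjusted p = 0.0599 in KO #1 and 0.136 in KO #2), and the KO #2 call was also lost without KO #2 replicate 2 or Control replicate 1 or 3 (0.0551 to 0.114). Srebf1, which encodes SREBP1, had 140.2, 142 and 164 normalised reads in KO #1, 128, 155 and 122 in KO #2 and 159, 167 and 189 in Control. KO #1 replicate 3 lay within the Control range and all KO #2 libraries were below it. The change of Srebf1 was -0.21 ± 0.10 in KO #1 (adjusted p = 0.144), and it fell in KO #2 (log2 change -0.35 ± 0.10, adjusted p = 0.006), a call lost by DESeq2 (0.0775) and without KO #2 replicate 3 (0.0649) or Control replicate 3 (0.0747).

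Insig1, both a brake on SREBP processing and itself an SREBP target, had 124, 128 and 106 normalised reads in KO #1, 132, 148 and 151 in KO #2 and 150.0, 146 and 157 in Control. It fell in KO #1 (log2 change -0.35 ± 0.10, adjusted p = 0.00695), a call lost by DESeq2 (adjusted p = 0.085) and without KO #1 replicate 3 (0.0825), whereas in KO #2 the libraries overlapped Control (log2 change -0.07 ± 0.10, adjusted p = 0.67). Its paralog Insig2 averaged 38.9 ± 2.01 in KO #1, 49.9 ± 4.37 in KO #2 and 47.6 ± 5.62 in Control (SD, n = 3 each). The KO #1 libraries of Insig2 were all below Control, but the change of -0.28 ± 0.17 was not called (adjusted p = 0.284). Scap, the escort of the SREBPs, averaged 180.3 ± 5.82 in KO #1, 176 ± 15.5 in KO #2 and 179 ± 6.02 in Control, with a change of 0.01 ± 0.086 in KO #1 and of -0.03 ± 0.086 in KO #2. Stard4, a carrier of cholesterol between membranes, averaged 107 ± 1.56 in KO #1, 123 ± 13.3 in KO #2 and 108 ± 15.9 in Control, with changes of -0.00 ± 0.11 in KO #1 and 0.19 ± 0.11 in KO #2. Neither gene was called in either clone, with 95% intervals in KO #1 of -0.16 to 0.18 for Scap and -0.23 to 0.23 for Stard4.

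Fatty acid synthesis starts from the acetyl-CoA that Acly splits from citrate, which Acaca carboxylates and Fasn condenses. Acly averaged 629.9 ± 12.4 in KO #1, 724 ± 32.1 in KO #2 and 733 ± 35.5 in Control (SD, n = 3 each), and fell in KO #1 (log2 change -0.22 ± 0.049, adjusted p = 0.000498) with libraries apart from Control, but not by the test in KO #2 (log2 change -0.02 ± 0.049, adjusted p = 0.868). Acaca had 357, 312 and 348 normalised reads in KO #1, 363, 438 and 385 in KO #2 and 478, 483 and 478 in Control. The Control libraries lay close together and above both clones, and Acaca fell in KO #1 (log2 change -0.50 ± 0.064, adjusted p = 3.95e-09) and in KO #2 (log2 change -0.28 ± 0.064, adjusted p = 0.000408). Its count is uncertain, since 29.2% of its 50-base stretches occur in the gene model Gm5182. Fasn had 899, 862 and 858 normalised reads in KO #1, 1114, 1078 and 1142 in KO #2 and 1249, 1212 and 1297 in Control. Fasn formed 3 separate steps, and fell in KO #1 (log2 change -0.52 ± 0.042, adjusted p = 8.83e-16) and in KO #2 (log2 change -0.17 ± 0.042, adjusted p = 0.00104). Elovl6, which lengthens the palmitate that Fasn makes, had 148, 152 and 144 normalised reads in KO #1, 175, 187 and 194 in KO #2 and 208, 212 and 209 in Control. It fell in KO #1 (log2 change -0.50 ± 0.084, adjusted p = 3.99e-06), and in KO #2, also below Control in every library, the change was -0.18 ± 0.084 (adjusted p = 0.123).

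The Fasn promoter is shown because Fasn fell in both clones and its window held an overlapping pair of CCAAT boxes on opposite strands. It lies at chr11:120824498-120824797 on the minus strand of GRCm38.p6 (RefSeq). Capitals mark 3 CCAAT boxes, of which the pair CCAATTGG begins 62 bases before the start.
Fasn: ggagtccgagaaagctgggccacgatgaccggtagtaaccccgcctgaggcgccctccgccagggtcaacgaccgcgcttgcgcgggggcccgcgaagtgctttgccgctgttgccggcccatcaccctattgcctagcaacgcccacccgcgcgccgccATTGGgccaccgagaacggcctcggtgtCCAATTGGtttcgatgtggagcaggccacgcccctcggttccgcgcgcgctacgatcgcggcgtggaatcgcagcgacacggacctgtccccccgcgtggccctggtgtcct
No GC box and no sterol regulatory element core in the searched spelling was in this window.

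In KO #1 the Scd desaturases had the largest falls of the 37 tested members. Scd1 and Scd2 introduce the first double bond into saturated fatty acids, and lie in the Scd gene cluster on chromosome 19, at chr19:44394450-44407709 and chr19:44293676-44306862 in mm10. Scd1 had 23.7, 31.9 and 33.5 normalised reads in KO #1, 37.7, 49.1 and 53.1 in KO #2 and 82.9, 103 and 89.2 in Control. The 3 groups did not overlap, and Scd1 was 3.04-fold lower in KO #1 (log2 change -1.60 ± 0.17, adjusted p = 2.72e-11) and 1.96-fold lower in KO #2 (log2 change -0.97 ± 0.17, adjusted p = 8.55e-06). Scd2, the more abundant of the pair per length, had 1040.0, 1169 and 1163 normalised reads in KO #1, 1662, 1627 and 1479 in KO #2 and 2327, 2174 and 2276 in Control. The groups again did not overlap, and Scd2 was 2.01-fold lower in KO #1 (log2 change -1.01 ± 0.041, adjusted p = 2.13e-28) and 1.42-fold lower in KO #2 (log2 change -0.51 ± 0.041, adjusted p = 1.13e-15). Of the 50-base stretches of Scd1 4.56% occur in another gene, chiefly Scd3, and 2.66% of those of Scd2 occur in Scd1.

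Fads1 and Fads2, which desaturate polyunsaturated fatty acids, also lie on chromosome 19, at chr19:10182888-10196872 and chr19:10064164-10101503. Fads2 had 283, 271 and 257 normalised reads in KO #1, 339, 365 and 325 in KO #2 and 401, 448 and 434 in Control. Its groups did not overlap, and Fads2 fell in KO #1 (log2 change -0.66 ± 0.066, adjusted p = 2.25e-12) and in KO #2 (log2 change -0.32 ± 0.066, adjusted p = 0.000112). Fads1 had 603, 573 and 570.1 normalised reads in KO #1, 671, 685 and 690.4 in KO #2 and 659.5, 682 and 635 in Control. Fads1 fell in KO #1 (log2 change -0.18 ± 0.049, adjusted p = 0.00497), a call that DESeq2 did not make (adjusted p = 0.0521), while the KO #2 libraries overlapped those of Control (log2 change 0.05 ± 0.049, adjusted p = 0.533). The 355 tested genes of chromosome 19 had median log2 changes of 0.02 in KO #1 and -0.01 in KO #2 against Control. In KO #1 the calls of Scd1, Scd2, Fads2, Fasn, Acaca and Elovl6 held in all 22 other settings that were run, and in KO #2 those of Scd1, Scd2 and Fads2 did.

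**Figure D3:**
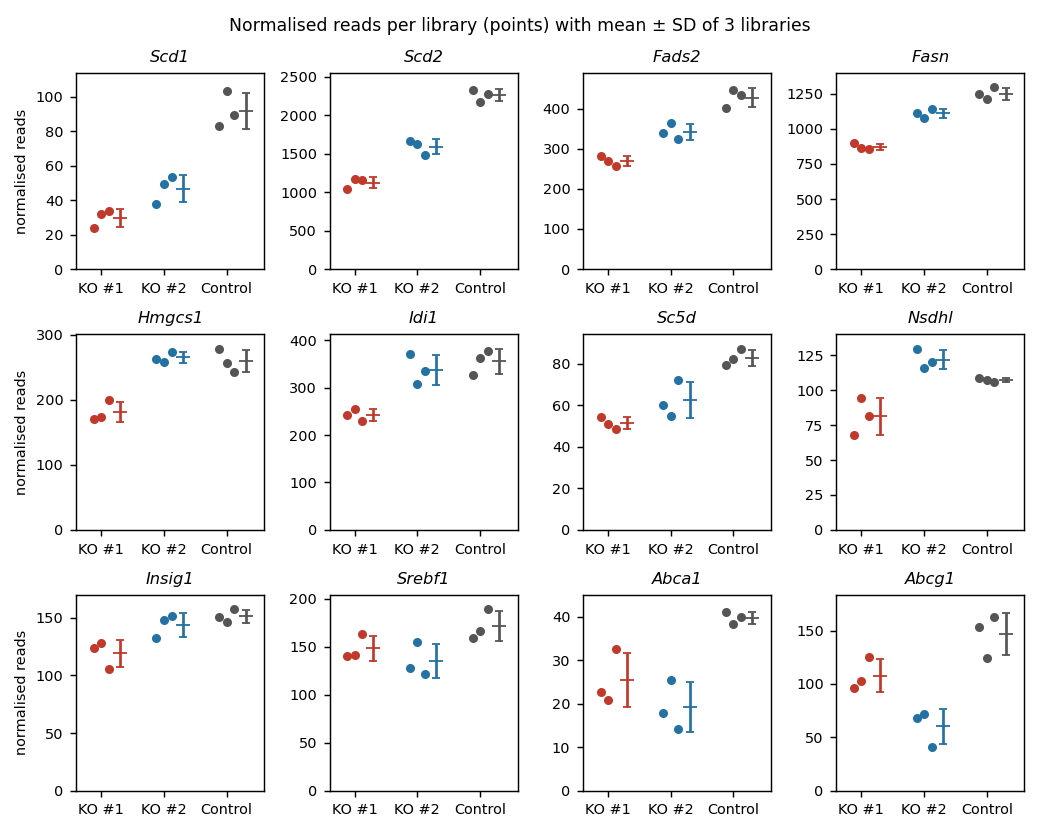
Normalised reads (y axis, from 0) in each library for 12 members, with KO #1, KO #2 and Control from left to right, points for libraries and bars for the mean ± SD of 3 libraries. Scd1, Scd2, Fads2 and Fasn form 3 separate steps with KO #1 lowest, Sc5d is below Control in both clones, Hmgcs1 and Idi1 are low in KO #1 alone, and Abcg1 is lowest in KO #2.

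Among the LXR and efflux genes those that fell were the transporters Abca1 and Abcg1, in both clones. Abca1, which loads cholesterol onto lipid-poor apolipoprotein, had 22.7, 21.0 and 32.5 normalised reads in KO #1, 17.9, 25.5 and 14.2 in KO #2 and 41.0, 38.3 and 39.9 in Control. No library of either clone reached Control. Abca1 fell in KO #1 (log2 change -0.65 ± 0.23, adjusted p = 0.0341) and in KO #2 (log2 change -1.05 ± 0.23, adjusted p = 0.000291). The KO #1 call was lost by DESeq2 (adjusted p = 0.154) and on leaving out KO #1 replicate 1 or 2 or any 1 Control library (0.0652 to 0.158), and with the authors' FPKM tables neither call was made (log2 change -0.32 in KO #1, adjusted p = 0.277, and -0.56 in KO #2, adjusted p = 0.0683). These FPKM changes are on the log2(FPKM + 1) scale, which understates the change of genes of low FPKM. Abcg1, which passes cholesterol to high-density lipoprotein, had 95.9, 103 and 125 normalised reads in KO #1, 67.9, 71.7 and 41.3 in KO #2 and 154, 125 and 163 in Control. All KO #2 libraries were below all others, and KO #1 replicate 3 exceeded Control replicate 2 by less than 1 normalised read. Abcg1 was 2.47-fold lower in KO #2 (log2 change -1.30 ± 0.14, adjusted p = 2e-11), a call that held in all 22 other settings. It fell less in KO #1 (log2 change -0.44 ± 0.14, adjusted p = 0.015), and there the call was lost by DESeq2 (0.0505) and without KO #1 replicate 1 or 2 or Control replicate 1 or 3 (0.0568 to 0.11).

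The Abca1 promoter is shown as that of the called member with the largest fall whose window held a searched motif. Scd1 and Abcg1 had larger falls, but neither was among the 30 members with a promoter entry. It lies at chr4:53159846-53160145 on the minus strand of GRCm38.p6 (RefSeq), and capitals mark 2 GC boxes, 163 and 97 bases before the start.
Abca1: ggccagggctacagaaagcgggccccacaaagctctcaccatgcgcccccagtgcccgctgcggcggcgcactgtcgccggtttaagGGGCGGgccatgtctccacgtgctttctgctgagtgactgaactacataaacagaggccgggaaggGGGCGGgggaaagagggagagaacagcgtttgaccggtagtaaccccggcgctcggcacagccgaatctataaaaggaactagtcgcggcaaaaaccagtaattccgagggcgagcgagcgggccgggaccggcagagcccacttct
The direct repeat that LXR binds with its partner RXR, searched in its textbook spelling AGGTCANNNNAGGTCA, was in 0.0152% of all promoter windows and in 0 of the 39 member windows, and a window without these letters says nothing about binding.

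Neither receptor gene was called as lower. Nr1h3, which encodes LXR alpha, was the least abundant member per length in Control and had 11.3, 8.98 and 10.2 normalised reads in KO #1, 12.3, 15.7 and 20.1 in KO #2 and 7.85, 7.86 and 6.29 in Control. All KO #2 libraries exceeded all Control libraries, and Nr1h3 rose in KO #2 (log2 change 1.01 ± 0.32, adjusted p = 0.0142). Nr1h3 was under 10 normalised reads in every Control library, so that it passed the filter on low values only through the clones. The call was lost by DESeq2 (adjusted p = 0.113) and without KO #2 replicate 3 (0.0988) or Control replicate 3 (0.0607), and the KO #1 change was 0.42 ± 0.32 (adjusted p = 0.404). Nr1h2, which encodes LXR beta, had 54.6, 52.9 and 66.0 normalised reads in KO #1, 44.3, 50.1 and 59.0 in KO #2 and 45.4, 39.3 and 52.5 in Control. Its KO #1 libraries were all above Control, but the change was not called (log2 change 0.34 ± 0.17, adjusted p = 0.16 in KO #1, and log2 change 0.16 ± 0.17, adjusted p = 0.566 in KO #2). Mylip, a ubiquitin ligase for the LDL receptor, averaged 33.5 ± 7.87 in KO #1, 45.1 ± 4.94 in KO #2 and 36.2 ± 4.90 in Control (SD, n = 3 each) without a call. Lpcat3, which puts polyunsaturated chains into phospholipids, averaged 79.5 ± 2.97 in KO #1, 88.5 ± 9.40 in KO #2 and 100.2 ± 14.5 in Control, and its change of -0.32 ± 0.13 in KO #1 missed the threshold (adjusted p = 0.0624) but was called by edgeR (0.0372) and without Control replicate 3 (0.0154). Exons of Emg1 on the opposite strand cover 25.3% of the Lpcat3 exon bases.

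Set directly against each other, the clones differed in 19 of the 37 tested members. In KO #1 17 were lower than in KO #2 and 2 were higher, where 12.9% and 13.5% of all tested genes were. All 8 fatty acid genes were lower in KO #1, with a median log2 difference of -0.33, as were 8 of 17 sterol enzymes (median -0.27) and Insig1. The median over all 37 members was -0.25, beside -0.00 over all tested genes. DESeq2 called 12 of the 37, and 12 of the 19 calls held in all 21 other settings.

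Of the sterol enzymes 8 were lower in KO #1 than in KO #2 and Pmvk was higher. KO #1 was lower than KO #2 for Hmgcs1 (log2 difference -0.55 ± 0.078, adjusted p = 4.62e-08), Idi1 (-0.48 ± 0.071, 1.8e-07), Nsdhl (-0.59 ± 0.12, 6.23e-05), Acat2 (-0.51 ± 0.12, 0.001) and Msmo1 (-0.38 ± 0.078, 8.84e-05). None of these 5 genes was called between KO #2 and Control. Fdps (-0.31 ± 0.05, 1.17e-06), Sqle (-0.25 ± 0.071, 0.00454) and Fdft1 (-0.34 ± 0.11, 0.0102) were lower in KO #1 too, the last of them not called by DESeq2 (adjusted p = 0.0983) or without KO #1 replicate 3 (0.0596) or KO #2 replicate 2 (0.053), and Sqle not by DESeq2 (0.0616). Pmvk was higher in KO #1 (0.47 ± 0.16, 0.0252), a call lost by DESeq2 (0.141) and without KO #1 replicate 1 or 3 or KO #2 replicate 3 (0.0876 to 0.122). Insig1 was lower in KO #1 (-0.27 ± 0.10, 0.0336), not by DESeq2 (0.201), in a fit of only the 2 clones (0.0638) or without KO #1 replicate 3 or KO #2 replicate 2 or 3 (0.107 to 0.219).

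For Lss, Cyp51, Mvd and Sc5d, which fell in both clones, the difference between the clones was not called, with 95% intervals of -0.37 to 0.02, -0.26 to 0.06, -0.38 to 0.12 and -0.56 to 0.02 on the log2 scale. The difference of Dhcr7 was -0.27 ± 0.13 (adjusted p = 0.114), and it was called as lower in KO #1 without KO #1 replicate 2 (0.00447). In the fatty acid group the differences ran from -0.20 for Acly to -0.63 for Scd1, with adjusted p of 0.00102 and 0.00323, and included -0.50 ± 0.041 for Scd2 (1.76e-15), -0.35 ± 0.042 for Fasn (4.79e-10) and -0.23 ± 0.049 for Fads1 (0.000191). DESeq2 did not call Scd1 (0.055), Elovl6 (0.0516) or Acaca (0.0578), and the Acaca call was also lost without KO #1 replicate 2 (0.0861) or KO #2 replicate 2 (0.134). Abcg1 went the other way, being higher in KO #1 than in KO #2 by 0.86 ± 0.14 (adjusted p = 1.09e-06). The differences of Abca1 (0.40 ± 0.23, adjusted p = 0.216), Nr1h3 (-0.59 ± 0.32, 0.18) and Mylip (-0.44 ± 0.19, 0.0925) were not called, although Mylip was without KO #1 replicate 3 (0.034).

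**Figure D4:**
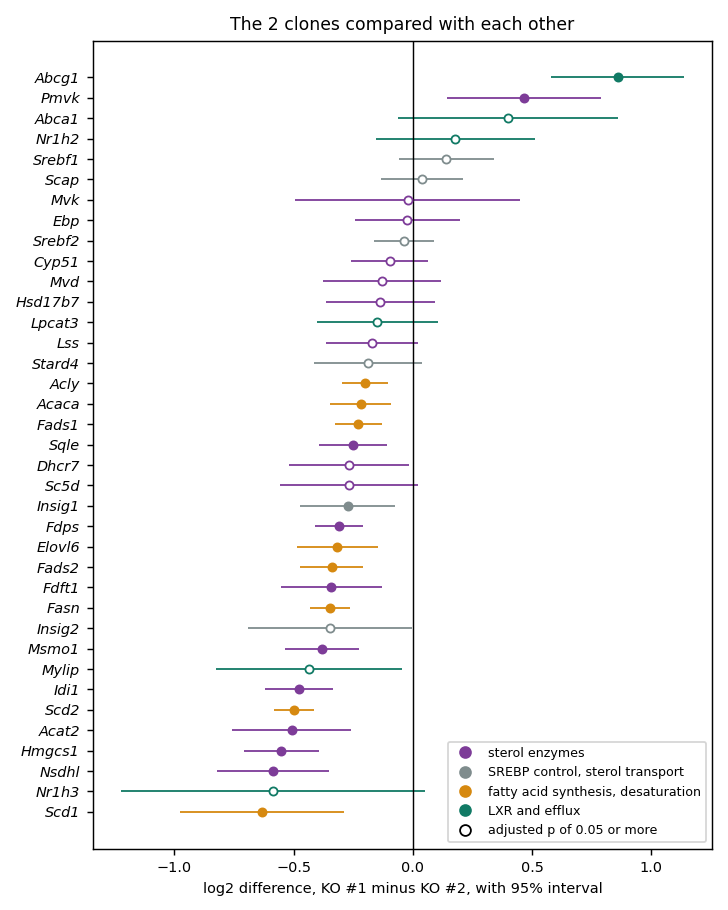
Log2 difference of KO #1 minus KO #2 (x axis) for the 37 tested members, ordered by size, with 95% intervals and colours for the 4 groups of genes. Filled points passed an adjusted p of 0.05 in limma, and 17 of these 19 lie below 0, with Abcg1 and Pmvk above.

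Per length the members spanned a wide range. Fdps was the most abundant, at 405 ± 26.5 normalised reads per kilobase of gene model in KO #1, 502 ± 11.1 in KO #2 and 539 ± 28.7 in Control (SD, n = 3 each). Scd2 came next in Control and was closer to the following gene, Fads2, in the clones, at 206 ± 13.4 in KO #1, 292 ± 17.9 in KO #2 and 414 ± 14.3 in Control, while Fads2 was at 179 ± 8.74 in KO #1, 227 ± 13.7 in KO #2 and 284 ± 15.9 in Control. Scd1 stood far below its paralog, at 6.15 ± 1.09 per kilobase in KO #1, 9.64 ± 1.65 in KO #2 and 18.96 ± 2.14 in Control. The ratio of the level of Scd2 to that of Scd1 per length was 34.1 ± 4.30 in KO #1, 31.1 ± 7.33 in KO #2 and 22.1 ± 3.14 in Control. The ratio of Fads1 to Fads2 was 0.939 ± 0.024 in KO #1, 0.870 ± 0.055 in KO #2 and 0.673 ± 0.040 in Control, and its libraries in both clones were all above those of Control. For Srebf2 against Srebf1 the ratio was 2.104 ± 0.22 in KO #1, 2.39 ± 0.37 in KO #2 and 2.13 ± 0.15 in Control, with overlapping libraries. These ratios were not tested.

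**Figure D5:**
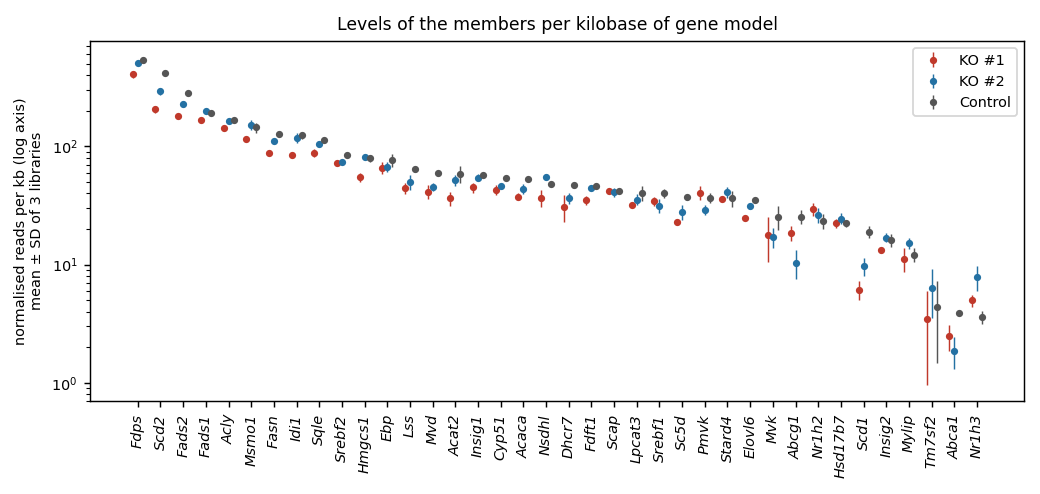
Normalised reads per kilobase of gene model (y axis, log scale) of the 38 members, ordered by their Control mean, as mean ± SD of 3 libraries for KO #1, KO #2 and Control from left to right. Fdps is highest in each group, and Nr1h3, lowest in Control, lies higher in KO #2.

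The coefficient of variation of the 37 tested members had a median of 8.82% in KO #1, 9.57% in KO #2 and 5.66% in Control. The highest was that of Mvk in KO #1 (41.6%) and Control (22.5%) and of Abca1 in KO #2 (30.1%), and the lowest were those of Msmo1 in KO #1 (1.17%), Fads1 in KO #2 (1.49%) and Acaca in Control (0.588%).

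General promoter motifs were counted too. Of the 39 member windows 59.0% held a CCAAT box and 71.8% a GC box, beside 37.4% and 35.7% of all 32851 windows. By gene, 22 of the 30 members with a window held a CCAAT box and 24 a GC box. Abcg1, Fads1, Fdft1, Fdps, Scd1, Scd2, Sqle and Stard4 had no entry.

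Other genes of the same pathways moved both ways. Of 71 such genes 57 were tested, and 12 rose and 10 fell in KO #1, while 14 rose and 6 fell in KO #2. Over all tested genes 10.5% rose and 10.2% fell in KO #1, and 10.7% rose and 11.8% fell in KO #2, and the 6 of 57 that fell in KO #2 are near that share. The median log2 change of the 57 genes was 0.01 in KO #1 and 0.02 in KO #2. Among 22 SREBP pathway and precursor genes, 4 rose and 2 fell in KO #1, and 3 rose and 1 fell in KO #2, of which the 2 falls in KO #1 and the 3 rises in KO #2 are near the shares over all genes. Nus1, a subunit of the enzyme that makes dolichol precursors, rose in KO #1 (log2 change 0.37 ± 0.06, adjusted p = 1.57e-06) and in KO #2 (log2 change 0.21 ± 0.06, adjusted p = 0.00704). Me1, malic enzyme, a source of NADPH for lipid synthesis, rose too, at 177 normalised reads in KO #1, 147 in KO #2 and 116 in Control (log2 change 0.61 ± 0.10, adjusted p = 1.57e-06 in KO #1, and log2 change 0.34 ± 0.10, adjusted p = 0.00651 in KO #2). Aacs, which feeds ketone bodies into lipid synthesis, and Fntb, a farnesyltransferase subunit, fell in KO #1 (log2 change -0.58 and -0.60), and Osbp, an oxysterol-binding protein, fell in KO #2 (-0.33).

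Of 18 tested genes of fatty acid handling 3 rose and 5 fell in KO #1, and 2 rose and 3 fell in KO #2, where both counts are near the shares over all genes. The lipid droplet coat gene Plin2 rose in KO #1, with means of 209 normalised reads in KO #1 and 119 in Control (log2 change 0.81 ± 0.092, adjusted p = 2.05e-10), as did Acsl5 (0.17), an acyl-CoA synthetase. Hacd2, a dehydratase of fatty acid elongation, fell in KO #1 (log2 change -0.78 ± 0.085, adjusted p = 4.39e-11) and in KO #2 (log2 change -0.42 ± 0.085, adjusted p = 8.89e-05). The phosphatidate phosphatase gene Lpin1 fell in KO #1 (log2 change -1.32 ± 0.29, adjusted p = 0.00038), with means of 7.44 normalised reads in KO #1 and 19.6 in Control. Its KO #1 mean was under 10, so that it could not pass the filter on low values through KO #1 alone. In KO #2 Fabp5, a fatty acid carrier, rose (log2 change 0.58 ± 0.072, adjusted p = 1.3e-09), as did Elovl1 (0.34), and Lpcat2, a lysophospholipid acyltransferase, fell (log2 change -0.69 ± 0.16, adjusted p = 0.000418). Of 17 tested genes of cholesterol storage, efflux and LXR partners 5 rose and 3 fell in KO #1, and 9 rose and 2 fell in KO #2. Over all tested genes 10.5% rose and 10.2% fell in KO #1, and 10.7% rose and 11.8% fell in KO #2. The falls in both clones are near those shares. Cd36, a fatty acid transporter and scavenger receptor, and Lpl, which frees fatty acids from lipoproteins, rose in both clones, Cd36 by 1.24 and Lpl by 0.48 in KO #1, and by 1.36 and 1.23 in KO #2. Abca2 fell in KO #1 (log2 change -0.50 ± 0.11, adjusted p = 0.000213) and in KO #2 (log2 change -0.47 ± 0.11, adjusted p = 0.000398). Soat1, which esterifies cholesterol for storage, fell in KO #1 (log2 change -0.20 ± 0.06, adjusted p = 0.00837) and rose in KO #2 (log2 change 0.17 ± 0.06, adjusted p = 0.0281), with a log2 difference between the clones of -0.38 ± 0.06 (adjusted p = 7.03e-07). The lipid-sensing receptor gene Ppard fell in KO #2 (log2 change -1.32 ± 0.25, adjusted p = 3.59e-05). Ppard fell in KO #1 as well (log2 change -0.79 ± 0.25, adjusted p = 0.0181), where its libraries overlapped those of Control.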

How the data were processed

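RNA of 9 libraries, 3 each of KO #1, KO #2 and Control, was sequenced after stranded mRNA library preparation, per the labels' protocols. Per the submitters' processing notes the build was mm10 and the tools included edgeR 3.20.1, featureCounts 1.4.6, Cufflinks 2.1.1 and TopHat2 2.0.22, whose roles are not given there. The main deposited table gives a signal per gene and library, read counts scaled by the authors with a factor for each library (TMM, going by the table's name). Its values were whole multiples of a step in each library within 1e-06, so the reads were recovered. The authors' tables of 2 groups hold FPKM values and served only as an alternative. They were fitted as log2(FPKM + 1), each with its own 2 groups, for genes of at least 1 FPKM in at least 3 libraries. 12 further per-sample columns were not used.

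The members and lists were chosen with earlier results of these data known. Tests used limma-trend (limma 3.58.1, R 4.3.3) on log2(value + 1) with a term for group and all 9 libraries, for genes of at least 10 in at least 3 libraries, with Benjamini-Hochberg adjustment over 9564 genes per comparison. Recovered reads of libraries of the same group had a chi-square of 1.05 to 1.29 per degree of freedom. The procedure was tested on simulated data. DESeq2 1.42.0, edgeR 4.0.16 and limma-voom were run on recovered reads, with other size factors, filters, pseudocounts and thresholds, a replicate block and each library left out. Values of every library are given for called members with the largest changes in each group of genes, and for other members where they help. Other pathway genes were counted whole, naming up to 2 called per direction, list and clone with the smallest adjusted p. For some of the genes named, the call in the other clone is given as well. Promoters are from RefSeq (GRCm38.p6). Those of Abca1 and Sc5d were taken by size of change among called members with a motif, and those of Hmgcs1 and Fasn were added after the motifs were seen. Gene positions and lengths are those of the authors' gene models. Overlaps set the exons of those models against GENCODE M21 (mm10), which also gave the shared 50-base stretches. The limit of 3 reads covers counting error only, as reads carry no molecular identifiers.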

Additional observations from a re-analysis of the deposited data

Results flagged for a closer look

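These 19 members differed between the clones by the direct limma test of KO #1 against KO #2 (Benjamini-Hochberg adjusted p under 0.05), so that their effects against the shared Control differ between the clones. Values are log2 differences, KO #1 minus KO #2. Among the sterol enzymes the difference was -0.51 for Acat2, -0.55 for Hmgcs1, 0.47 for Pmvk, -0.48 for Idi1, -0.31 for Fdps, -0.34 for Fdft1, -0.25 for Sqle, -0.38 for Msmo1 and -0.59 for Nsdhl. Of the SREBP control genes Insig1 differed by -0.27. The fatty acid genes differed by -0.20 for Acly, -0.22 for Acaca, -0.35 for Fasn, -0.32 for Elovl6, -0.63 for Scd1, -0.50 for Scd2, -0.23 for Fads1 and -0.34 for Fads2. Of the LXR and efflux genes Abcg1 differed by 0.86, with KO #2 the lower of the clones. Pmvk and Abcg1 were the ones higher in KO #1.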

How the results depend on the processing

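No member called in 1 of the 3 comparisons changed direction under an alternative. The number of members called was 25 in KO #1 against Control and 22 to 25 on leaving out 1 library, with 19 to 26 under the other settings. In KO #2 against Control it was 15, with 8 by DESeq2, 9 at an adjusted p under 0.01 and 8 with the FPKM tables, and 9 to 16 on leaving out 1 library. Between the clones it was 19, with 12 by DESeq2. Calls kept in every setting were 18 of 25 in KO #1, 4 of 15 in KO #2 (Scd1, Scd2, Fads2 and Abcg1) and 12 of 19 between the clones. The median log2 change of SREBP control in KO #1 was -0.25 with library totals as size factors and -0.24 to -0.17 on leaving out 1 library, and on leaving out 1 library it was -0.078 to -0.034 in KO #2 and -0.136 to -0.080 between the clones. That of the sterol enzymes in KO #2 was -0.22 to -0.10 on leaving out 1 library. That of LXR and efflux was -0.17 in KO #2 and 0.18 between the clones with a filter of 30, which leaves out Nr1h3, and it changed sign on leaving out 1 library (-0.043 to 0.046 in KO #2 and -0.047 to 0.051 between the clones). The cause of the other shifts was not tested. With a replicate block Mvk was also called as lower in KO #1 (adjusted p = 0.0421) and in KO #2 (0.0488) and no call was lost, while same-numbered libraries showed no shared deviation (correlations of -0.017 to 0.028 over 9 pairs). Over all genes DESeq2 called 1236, 1396 and 1612 in KO #1, in KO #2 and between the clones, where limma called 1985, 2152 and 2533. The FPKM alternative was not run between the clones, because column names of that table resemble labels of both. The members with the fewest reads, and so the largest counting error, were Tm7sf2, Nr1h3, Abca1, Mvk and Mylip.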
